A study of Mus musculus with 2 samples.

Results

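The 32 genes described here encode subunits of the heterotrimeric G proteins: 15 alpha, 5 beta and 12 gamma subunit genes. They are a list of named genes, not picked by a measured threshold but drawn up with earlier results of these data known, and make up 32 of the 55536 genes in the deposited tables. Gnas, which encodes the alpha s subunit, is not among the 32 and is given only where a sum depends on it. Heterotrimeric G proteins couple cell-surface receptors to enzymes and ion channels. An active receptor makes the alpha subunit exchange GDP for GTP, after which the alpha subunit and the beta-gamma dimer act on separate effectors until the alpha subunit hydrolyses its GTP. In brain, alpha o and alpha i subunits mediate much of the inhibitory signalling of transmitter receptors, alpha olf raises cyclic AMP in striatal and olfactory neurons, alpha q activates phospholipase C beta, and alpha 12 and alpha 13 act through exchange factors of small GTPases on the cytoskeleton.

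The series holds polyA RNA-seq of the forebrain of newborn mice of strain B6NCrl, at an age of 0 days, with no treatment or mutation named. It has 2 libraries, which form a single group. Each was made from the forebrain of 1 animal, called pup 3 and pup 1 in the labels. The labels record no sex and give both pups the same donor identifier, and do not say whether they are littermates, so the spread given here is that of these animals only. With no second group, no test between conditions is possible. All values below are descriptions, given as mean ± SD over n = 2 pups or as the value in each pup. In tissue of many cell types, fewer cells of a type and less RNA per cell cannot be told apart.

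Levels are in TPM, a unit that is corrected for transcript length and sums to the same total in each library. The deposited expected counts summed to 41230878 in pup 3 and 40964891 in pup 1. At this depth, 1 count on a transcript of 1000 bases was worth 0.0340 TPM in pup 3 and 0.0383 in pup 1. The tissue label was set against marker lists. All 10 forebrain neuron markers were detected, led by the neuronal tubulin Tubb3 at 1626 and 1749 TPM and the cortical factor Neurod6 at 316 and 197 TPM in pup 3 and pup 1. Of 7 midbrain and hindbrain markers, 1 was detected, Slc6a4 at 1.71 TPM in pup 3 and 2.44 in pup 1. Tph2 was next, with 0.62 TPM in pup 3 and 0.86 in pup 1. Hoxa2 and Hoxb3 had 0 TPM in both pups.

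Alpha and gamma subunits are told apart partly by their C-terminal ends, and these ends are printed because the sums below are grouped by them. Each sequence is the end of the coding sequence in the GENCODE M21 transcripts, 5′ to 3′, as its last 4 codons and stop codon. In the alpha genes, capitals mark a cysteine codon in position 4 from the end, which encodes the residue that pertussis toxin modifies. The alpha genes of the i and o family that carry it lead the list.
Gnai1: TGTggtctcttctaa
Gnai2: TGTggcctcttctga
Gnai3: TGTgggctttattga
Gnao1: TGCggcttgtactga
Gnaz: atcggcctttgctga
Gnaq: tacaatctggtctaa
Gna11: tacaacctggtgtga
Gna12: atcatgctgcagtga
Gna13: ctcatgctgcagtga

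These ends lie, on build GRCm38, at chr5:18267019-18267033 for Gnai1, chr9:107615635-107615649 for Gnai2, chr3:108109422-108109436 for Gnai3, chr8:93967041-93967055 for Gnao1 and chr10:75015198-75015212 for Gnaz. Those of Gnaq and Gna11 lie at chr19:16383380-16383394 and chr10:81530795-81530809. Those of Gna12 and Gna13 lie at chr5:140760549-140760563 and chr11:109396472-109396486. Each lies within a single exon, on the minus strand for Gnai1, Gnai2, Gnai3, Gna11 and Gna12 and on the plus strand for the others. Gnaz has an isoleucine codon in the place of the cysteine, Gnaq and Gna11 have a tyrosine codon, Gna12 has an isoleucine codon and Gna13 a leucine codon.

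In the gamma genes, the first capital codon is the cysteine of the CAAX box, to which a lipid is attached. The second is the last codon, which bears on which lipid it is: proteins that end in leucine usually receive geranylgeranyl, and those that end in serine usually receive farnesyl. The most abundant gamma genes are shown with all 3 genes whose last codon is serine.
Gng3: TGTgcgctcCTCtga
Gng2: TGCgccatcCTTtaa
Gng10: TGTgctctaCTTtga
Gng5: TGCtcctttTTGtag
Gng11: TGTgtcattTCAtaa
Gngt2: TGTgtgctaAGCtga
Gngt1: TGTgtgattTCAtag

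On the same build, the ends are at chr19:8838143-8838157 for Gng3, chr14:19875807-19875821 for Gng2, chr4:59039338-59039352 for Gng10 and chr3:146503371-146503385 for Gng5. The serine ends are at chr6:4008146-4008160 for Gng11, chr11:95845594-95845608 for Gngt2 and chr6:3996766-3996780 for Gngt1. Gng3 and Gng2 are on the minus strand and the others on the plus strand. All 12 gamma genes carried the CAAX cysteine codon, with leucine last in 9 and serine last in 3.

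Most subunit genes were expressed in newborn forebrain, and most at high levels. Of the 32 genes, 26 had at least 1 TPM in both pups, the level called detected here: 11 of 15 alpha, 4 of 5 beta and 11 of 12 gamma genes. The same level was reached by 26.6% of all genes and 59.5% of protein-coding genes. The median of the 32 mean levels was 64.2 TPM, against 3.77 TPM for all protein-coding genes. The 6 genes that fell short were the transducin and gustducin alpha genes Gnat1, Gnat2 and Gnat3, the alpha q family gene Gna14, the beta gene Gnb3 and the transducin gamma gene Gngt1.

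**Figure D1:**
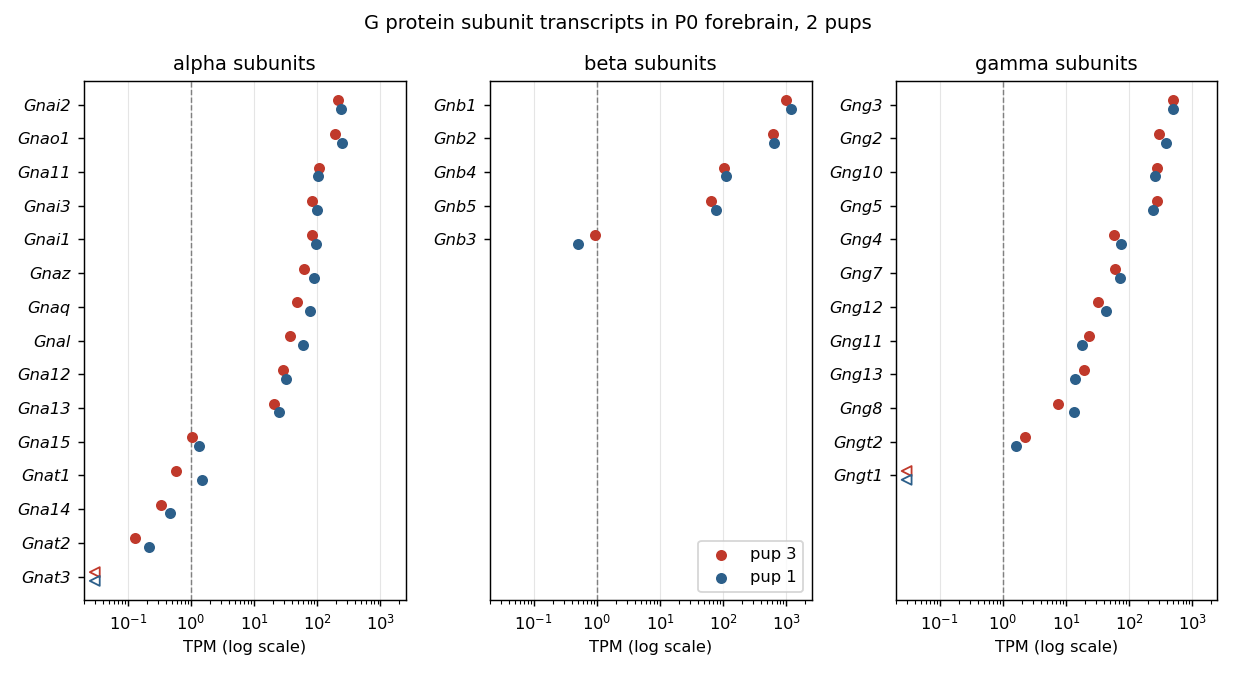
TPM of each subunit gene on a log axis, pup 3 in red above pup 1 in blue, ordered by mean within the alpha, beta and gamma classes. The dashed line is 1 TPM and open triangles mark genes with 0 TPM, drawn at the left edge. Gnb1 lies furthest right at 980 TPM in pup 3 and 1173 in pup 1, and Gnat3 and Gngt1 are the genes at 0.

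Among the listed alpha subunits, the inhibitory genes Gnai2 and Gnao1 were the most abundant. Gnai2, the alpha i2 gene at chr9:107614125-107635367 on the minus strand, stood at 213 TPM in pup 3 and 237 in pup 1. Gnao1, the alpha o gene that is abundant in neurons, at chr8:93809966-93969388 on the plus strand, stood at 190 TPM in pup 3 and 248 in pup 1. The ranges of these 2 genes overlapped, so their order was not resolved, and both lay above every other listed alpha gene in both pups.

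The next listed alpha gene was Gna11, which activates phospholipase C beta, at 106 TPM in pup 3 and 104 in pup 1. Gnai3 had 83.0 TPM in pup 3 and 97.3 in pup 1, and Gnai1 had 82.5 TPM in pup 3 and 94.5 in pup 1. These alpha i genes did not differ from each other beyond their spread, and Gna11 lay above both in each pup. Gnaz, an inhibitory alpha subunit that resists pertussis toxin, had 61.0 TPM in pup 3 and 87.3 in pup 1. Gnaq, the alpha q gene, had 47.8 TPM in pup 3 and 77.8 in pup 1. Gnal, the alpha olf gene that couples dopamine and adenosine receptors to adenylyl cyclase in the striatum, had 36.9 TPM in pup 3 and 60.3 in pup 1. From Gnai3 through Gnal every neighbour in the order overlapped with the next in range over the pups. Within each pup, the order of these genes was the same.

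The alpha 12 and alpha 13 genes, which couple receptors to the cytoskeleton, were lower. Gna12 had 28.3 TPM in pup 3 and 32.2 in pup 1, above Gna13 at 20.6 TPM in pup 3 and 25.2 in pup 1. Gna15, the alpha 15 gene of blood cells, was just above the detection level at 1.03 TPM in pup 3 and 1.34 in pup 1, from 49 and 55 counts. Its protein-coding transcripts alone had 0.75 TPM in pup 3 and 0.92 in pup 1, below that level. Gnat1, the rod transducin alpha gene, had 0.58 TPM in pup 3 and 1.51 in pup 1, from 19 and 28 counts, so it passed the level in pup 1 alone. Its coding transcript with the full reading frame, Gnat1-201, had 0 TPM in pup 3 and 0.21 in pup 1. The largest part came from Gnat1-204, a processed transcript with no annotated frame, at 0.23 TPM in pup 3 and 1.06 in pup 1.

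The remaining listed alpha genes were below 1 TPM. Gna14 had 0.33 TPM in pup 3 and 0.46 in pup 1, and the cone transducin gene Gnat2 had 0.13 TPM in pup 3 and 0.22 in pup 1. Gnat3, the gustducin gene of taste cells, had 0 counts in both pups, which allows up to 0.0808 TPM in pup 3 and 0.0911 in pup 1, taking 3 counts as the limit. Such limits cover counting error only. Markers of the taste cells in which gustducin is best known were low. Of 5 taste cell markers none was detected, with sums of 2.56 TPM in pup 3 and 2.80 in pup 1, and Tas1r2 was at 0. The highest were Tas1r1, with 0.87 TPM in pup 3 and 1.27 in pup 1, and Trpm5, with 0.92 TPM in each pup.

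The leading beta genes were more abundant than any listed alpha gene, and the order among the beta genes was resolved at every step. Gnb1, the beta 1 gene at chr4:155491361-155559269 on the plus strand, had 980 TPM in pup 3 and 1173 in pup 1. Its mean of 1077 ± 136 TPM placed it at rank 79 of 22028 protein-coding genes. Gnb2, the beta 2 gene at chr5:137528127-137533510 on the minus strand, had 611 TPM in pup 3 and 633 in pup 1. Gnb4 had 104 TPM in pup 3 and 112 in pup 1. Gnb5, the divergent beta subunit that partners R7 RGS proteins in place of a gamma subunit, had 63.6 TPM in pup 3 and 75.6 in pup 1. Gnb3, the beta subunit of cones, had 0.94 TPM in pup 3 and 0.50 in pup 1, from 45 and 20 counts. Scaled by depth, its count ratio of pup 3 over pup 1 was 2.24, with an exact 95% interval of 1.29 to 4.00.

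Among the gamma subunits, the neuronal Gng3 was the highest, at chr19:8836933-8839194 on the minus strand, with 495 TPM in pup 3 and 491 in pup 1. Gng2, a widely expressed gamma subunit, followed with 292 TPM in pup 3 and 382 in pup 1. Gng10 had 272 TPM in pup 3 and 260 in pup 1, and Gng5 had 273 TPM in pup 3 and 241 in pup 1. The last 2, both of them widely expressed genes, did not differ beyond their spread, and all 4 lay well above the other 8.

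Gng4, a gamma gene of neurons, had 56.6 TPM in pup 3 and 75.6 in pup 1. Gng7, the gamma partner of alpha olf in the striatum, had 60.6 TPM in pup 3 and 70.8 in pup 1, and overlapped with Gng4. Gng12 had 32.2 TPM in pup 3 and 43.0 in pup 1. Gng11, a farnesylated gamma subunit found in many non-neuronal cells, had 22.9 TPM in pup 3 and 17.7 in pup 1. Gng13, best known from taste and olfactory cells and retinal ON-bipolar cells, had 19.5 TPM in pup 3 and 14.01 in pup 1. Gng8, known from olfactory and vomeronasal neurons and the habenula, had 7.42 TPM in pup 3 and 13.6 in pup 1, from 85 and 147 counts. Its level also depended on the annotation, with a mean of 10.5 TPM in M21 and 4.44 TPM in the older M4 release.

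The transducin gamma genes were at the bottom of the gamma order. Gngt2, the cone form, had 2.27 TPM in pup 3 and 1.60 in pup 1, from 31 and 20 counts. Gngt1, the rod form, had 0 counts in both pups, which allows up to 0.0515 TPM in pup 3 and 0.0580 in pup 1. In the order of all 32 genes, 17 of the 31 neighbouring steps had overlapping ranges between the pups, and within the classes 6 of 14 alpha steps, 0 of 4 beta steps and 3 of 11 gamma steps did. Such an overlap need not mean that the order changed: Gnal, for example, overlapped with Gng12 but lay above it in both pups.

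Summed over each class, the alpha genes gave 870 TPM in pup 3 and 1068 in pup 1. The beta genes gave 1760 TPM in pup 3 and 1994 in pup 1, and the gamma genes 1533 TPM in pup 3 and 1609 in pup 1. Alpha transcripts were thus the smallest of the 3 sums, at 21.9% ± 1.39 of the total (SD, n = 2), with beta at 42.5% ± 0.289 and gamma at 35.6% ± 1.68. The beta sum was 2.02 times the alpha sum in pup 3 and 1.87 times in pup 1. This order depends on what is summed. From expected counts, with no length correction, alpha held 30.8% and gamma 28.5%, and from protein-coding transcripts alone beta held 37.8% and gamma 38.5%. Gnas alone had 1117 TPM in pup 3 and 1325 in pup 1, more than all 15 listed alpha genes together. With it, the alpha sum was 1987 TPM in pup 3 and 2393 in pup 1, the largest of the 3, and Gnas made up 55.8% ± 0.597 of that sum. These are transcript levels per length and not protein levels.

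**Figure D2:**
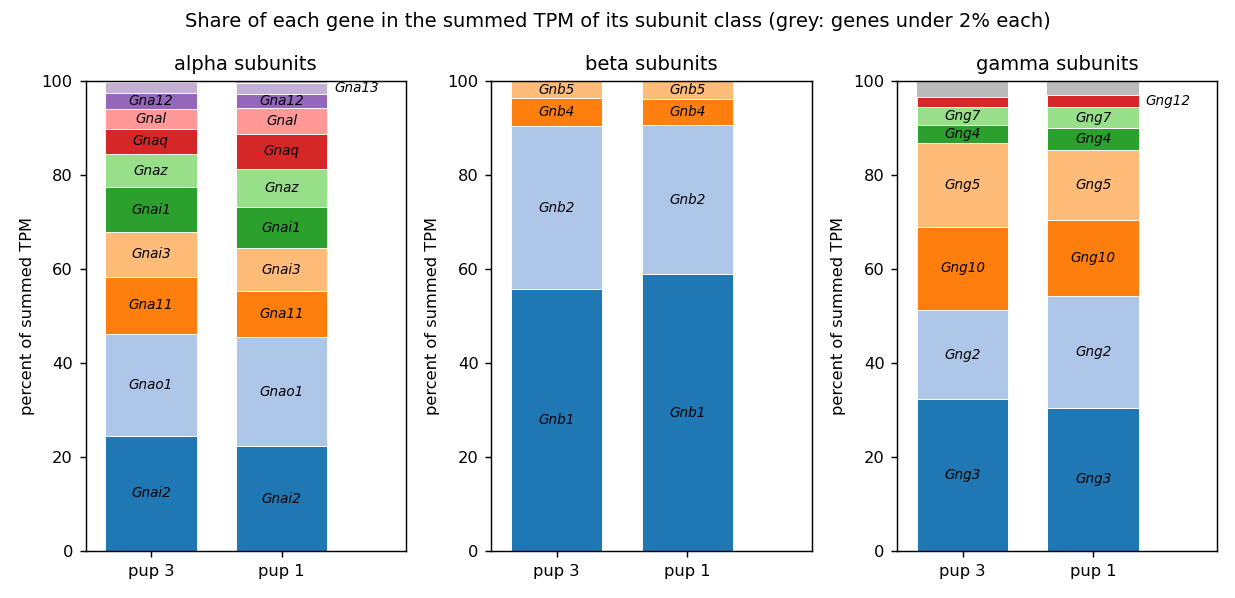
Percent of the summed TPM of each subunit class that each gene held, pup 3 at left and pup 1 at right in each panel, with genes under 2% drawn together in grey. Gnb1 and Gnb2 fill most of the beta bars, and 4 genes, Gng3, Gng2, Gng10 and Gng5, most of the gamma bars.

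A few genes carried most of each sum. Gnai2 and Gnao1 held 23.3% ± 1.56 and 22.5% ± 1.03 of the listed alpha transcripts. By family, the i, o, z and t genes held 72.1% ± 0.408 and the q family 17.5% ± 0.401. The 12 and 13 genes held 5.49% ± 0.179 and alpha olf 4.94% ± 0.989. Gnb1 held 57.3% ± 2.21 and Gnb2 33.2% ± 2.11 of the beta sum. Gng3 held 31.4% ± 1.25, Gng2 21.4% ± 3.31, Gng10 16.9% ± 1.12 and Gng5 16.4% ± 2.03 of the gamma sum.

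Grouped by the coding ends shown above, the 7 alpha genes with the cysteine codon summed to 568 TPM in pup 3 and 679 in pup 1, or 64.5% ± 1.23 of the listed alpha transcripts. The other 8 alpha genes, Gnaz among them, summed to 302 TPM in pup 3 and 389 in pup 1. The 9 gamma genes that end in leucine summed to 1508 TPM in pup 3 and 1590 in pup 1, or 98.6% ± 0.314 of the gamma sum. The 3 that end in serine summed to 25.2 TPM in pup 3 and 19.3 in pup 1, nearly all of it from Gng11. The genes that attach these lipids and process the box were all detected, 6 of 6. The highest were Fnta, the alpha chain shared by both prenyltransferases, at 56.5 and 82.0 TPM, the CAAX protease Rce1 at 37.8 and 43.3 TPM, and the farnesyltransferase chain Fntb at 30.8 and 34.9 TPM in pup 3 and pup 1. The lowest by mean was Pggt1b, the chain of the enzyme that attaches geranylgeranyl, at 5.01 TPM in pup 3 and 9.51 in pup 1.

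Several subunit genes sit beside a relative in the genome. In each such pair 1 gene lay far above the other, which was near the bottom of the order. Log2 ratios within a pup are of TPM + 0.1. Gnai3 and Gnat2 lie 5.85 kb apart on opposite strands of chromosome 3, and Gnai3 was higher by 8.37 ± 0.17 on the log2 scale. Gna11 and Gna15 lie 4.50 kb apart on the same strand of chromosome 10, and Gna11 was higher by 6.36 ± 0.26. Gnaq and Gna14 lie 48.3 kb apart on the same strand of chromosome 19, and Gnaq was higher by 6.96 ± 0.23. Each of these gaps was far larger than the spread between pups. Their size depends on the pseudocount, since the lower gene is near 0: with TPM + 1 the gaps of these pairs were 6.27, 5.60 and 5.48.

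The other pairs followed the same order. Gnai2 and Gnat1 lie 39.1 kb apart on the same strand of chromosome 9, with Slc38a3 between them, and Gnai2 was higher by 7.75 ± 0.77. Gnai1 lies 245 kb from Gnat3 on chromosome 5 on the opposite strand, and Gng11 lies 6.47 kb from Gngt1 on chromosome 6 on the same strand. Gnat3 and Gngt1 had 0 counts in both pups, so for these pairs no fold is given. The gamma pair was added after its values had been seen.

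**Figure D3:**
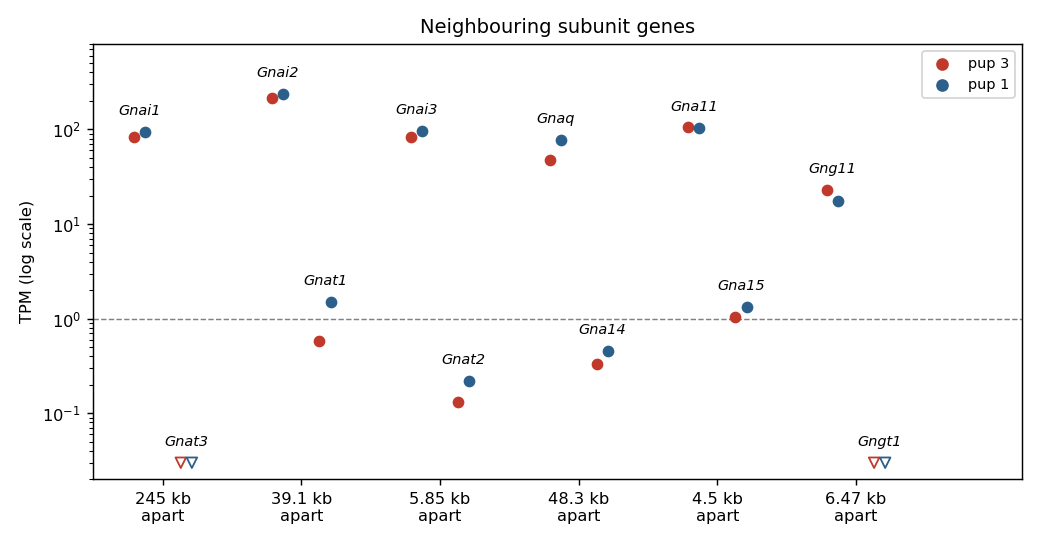
TPM on a log axis of 6 pairs of neighbouring subunit genes, pup 3 in red left of pup 1 in blue for each gene, with the distance between the genes below each pair. The dashed line is 1 TPM, and open triangles mark Gnat3 and Gngt1 at 0 TPM. The left gene of every pair lies above its neighbour in both pups.

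The level of a gene can come from transcripts that do not encode the full protein, so each gene was split by the annotated class of its transcripts. The split between transcripts of a gene is an estimate by the authors' quantification and is less certain than the gene level. Of the 26 detected genes, 24 had a protein-coding transcript as their most abundant. More than 90% of the TPM was in protein-coding transcripts in both pups for 18. For these counts the share over all detected genes was not computed. The median over the 26 was 99.9%, against 95.1% over all detected protein-coding genes.

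The smallest shares were those of beta genes. Gnb4 had 7.43% of its TPM in protein-coding transcripts in pup 3 and 11.8% in pup 1, the only one of the 26 under 50% in both pups, a state met by 8.55% of detected protein-coding genes. Its level in protein-coding transcripts was 7.72 TPM in pup 3 and 13.2 in pup 1. The rest lay mainly in a pair of transcripts annotated as retained introns, Gnb4-204 with 48.1% of the TPM in pup 3 and 46.2% in pup 1, and Gnb4-207 with 40.7% in pup 3 and 37.5% in pup 1. By expected counts, which favour long transcripts, the protein-coding share of Gnb4 was 20.0% in pup 3 and 24.2% in pup 1. Counted by these transcripts alone, Gnb4 lay below Gnb5, which had 62.9 TPM in pup 3 and 73.8 in pup 1.

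Gnb2 had 51.5% of its TPM in protein-coding transcripts in pup 3 and 50.6% in pup 1, or 315 TPM in pup 3 and 321 in pup 1. Its leading transcript, Gnb2-213, was a retained intron of 712 bases with 38.3% in pup 3 and 37.2% in pup 1. Transcripts with the full reading frame of 340 codons had 28.5 TPM in pup 3 and 29.7 in pup 1, and those with a frame of 296 codons had 141 TPM in pup 3 and 166 in pup 1. For Gnb1, by contrast, transcripts with the 340-codon frame had 979 TPM in pup 3 and 1171 in pup 1, nearly its whole level.

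**Figure D4:**
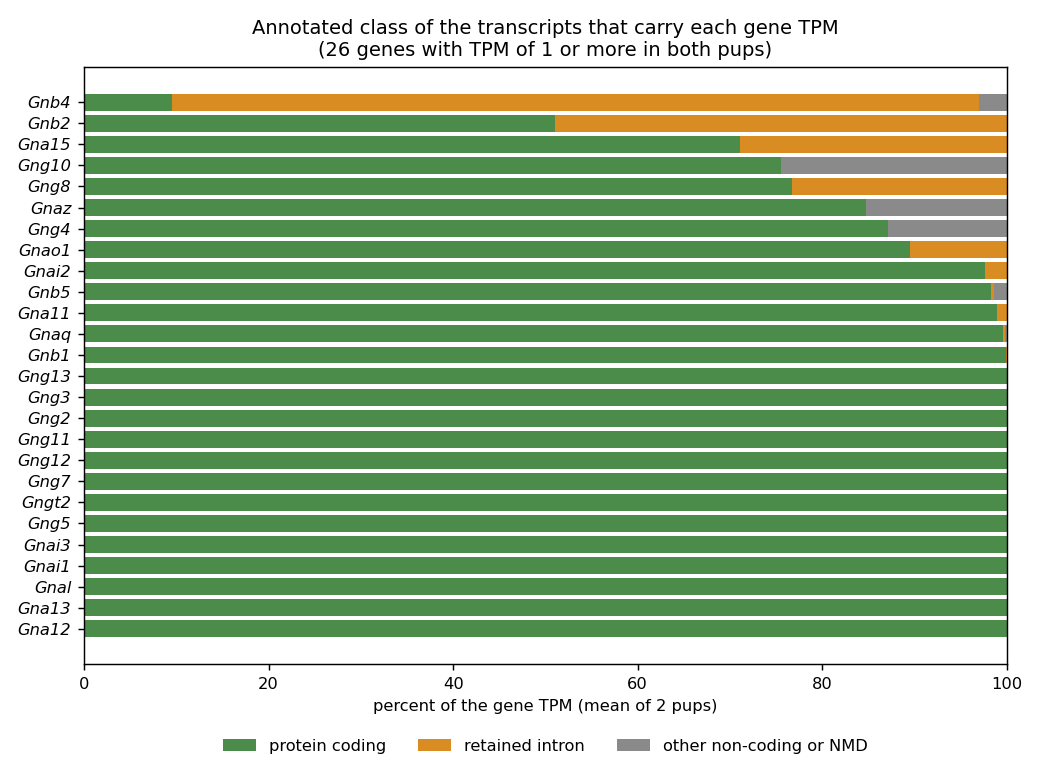
Percent of the TPM of each of the 26 detected subunit genes in transcripts annotated as protein coding (green), retained intron (orange) or another non-coding or decay class (grey), as the mean of both pups. Gnb4 and Gnb2 at the top have the smallest protein-coding shares, at 9.59% and 51.0%.

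Where a gene has several coding forms, some were strongly unequal. Gnao1 has alternative 3′ ends, which give the alpha o forms known as GoA and GoB. Gnao1-201 and a further transcript share a single coding sequence, with a GoA-type end, and Gnao1-207 has the other end. These 2 coding sequences share their first 737 bases and differ at 88 of 1065. The last 33 bases are shown because both ends keep the cysteine codon, with capitals at the 7 bases that differ.
Gnao1-201: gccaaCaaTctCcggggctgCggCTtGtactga
Gnao1-207: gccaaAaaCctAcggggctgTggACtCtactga

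These bases lie at chr8:93967023-93967055 for Gnao1-201 and chr8:93956220-93956252 for Gnao1-207, on the plus strand of GRCm38. The first form had 165 TPM in pup 3 and 213 in pup 1, which was 86.7% and 85.9% of the gene. The second had 4.52 TPM in pup 3 and 6.46 in pup 1, which was 2.38% and 2.60% of the gene. The order of the alpha o forms was the same in both pups.

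Gnal makes a long form from an upstream first exon and the shorter form of the olfactory epithelium and striatum. The form of 448 codons had 23.2 TPM in pup 3 and 39.1 in pup 1, above the form of 381 codons at 10.8 TPM in pup 3 and 17.7 in pup 1. Gnb5 also has a long form, which is best known from the retina. Its 353-codon form had 62.9 TPM in pup 3 and 73.2 in pup 1, and the 395-codon form had 0 TPM in pup 3 and 0.61 in pup 1. For Gna13, the full frame of 377 codons had 4.79 TPM in pup 3 and 9.30 in pup 1, below a shorter annotated frame of 173 codons at 15.8 TPM in pup 3 and 15.9 in pup 1. Expected counts, which favour long transcripts, gave the reverse order, where the full-frame transcript has 6160 bases and the other 914. The full frame had 854 counts in pup 3 and 1472 in pup 1. The shorter one had 379 in pup 3 and 337 in pup 1.

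Some levels share reads with other genes. The strand setting of the libraries is not given in the sources used here, so reads of overlapping genes on opposite strands cannot be told apart. Of the 32 genes, 10 were overlapped by a gene with at least 1 TPM in either pup, a count with no matching share over all genes. The largest share was for Gng10, where 78.9% of the 50-base stretches of its leading coding transcript also occur in another gene, the same-strand gene model Gm20503 that overlaps it, at 6.84 TPM in pup 3 and 9.78 in pup 1. Bscl2 overlaps Gng3 on the opposite strand with 62.7 TPM in pup 3 and 73.5 in pup 1, and Gm48283 overlaps Gng2, also on the opposite strand, with 21.2 TPM in pup 3 and 12.1 in pup 1. For Gng13, 37.6% of the stretches are shared with Chtf18 on the opposite strand, which had 1.84 TPM in pup 3 and 2.70 in pup 1. For Gng5, 30.1% are shared over 6 genes, mostly pseudogenes. Of the 4 pseudogenes named after members, 0 had 1 TPM in either pup. With 1 leading coding transcript searched per member, that of Gnaq alone shared any 50-base stretch with a transcript of another member.

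Differences between the pups were modest. Over all 15463 genes with a mean of at least 1 TPM, the median log2 ratio of TPM + 1, pup 3 over pup 1, was −0.24, with 79.6% of them lower in pup 3. Of the 27 members with such a mean, 20 were lower in pup 3, a share near that background. That shift was 0.01 with TMM scaling and 0.02 with DESeq2 size factors of the counts, so ratios are given relative to the all-gene median. On that scale the 27 members had a median of 0.02, with 12 below and 15 above the median of all genes. None of the 27 was more than 2-fold apart, against 1.78% of all genes. There are 2 animals and no test, so these ratios describe these pups only.

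The gamma genes spread most widely. Relative to all genes, Gng13 was higher in pup 3 by 0.69, Gng11 by 0.59, Gngt2 by 0.57 and Gng5 by 0.42 on the log2 scale. At the other end were Gng8 at −0.55, Gnaq at −0.45, Gnal at −0.45 and Gnat1 at −0.43. For the low genes counting error is part of this. The count ratio, scaled by depth, of pup 3 over pup 1 was 1.59 for Gng13, with an exact 95% interval of 1.23 to 2.08, and 0.575 for Gng8, with 0.435 to 0.755. For Gngt2 it was 1.54, with an interval of 0.850 to 2.85, and for Gnat1 0.674, with 0.356 to 1.25, and both intervals hold 1. Gna13 differed by unit: its count ratio was 0.677, with 0.629 to 0.728. Relative to all genes it was at −0.04 in TPM and as low as −0.45 in other settings. Its length, which rests on the estimated split of its transcripts, was 2135 bases in pup 3 and 2854 in pup 1. Of the 27 genes, 23 kept their side of the all-gene median under the alternative scalings and units tried, 10 below it and 13 above it. This count leaves out the settings without a minimum level and without centring, and the same share over all genes was not computed. Without a minimum level, 22 of the 32 members lay below the all-gene median and 8 above it.

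**Figure D5:**
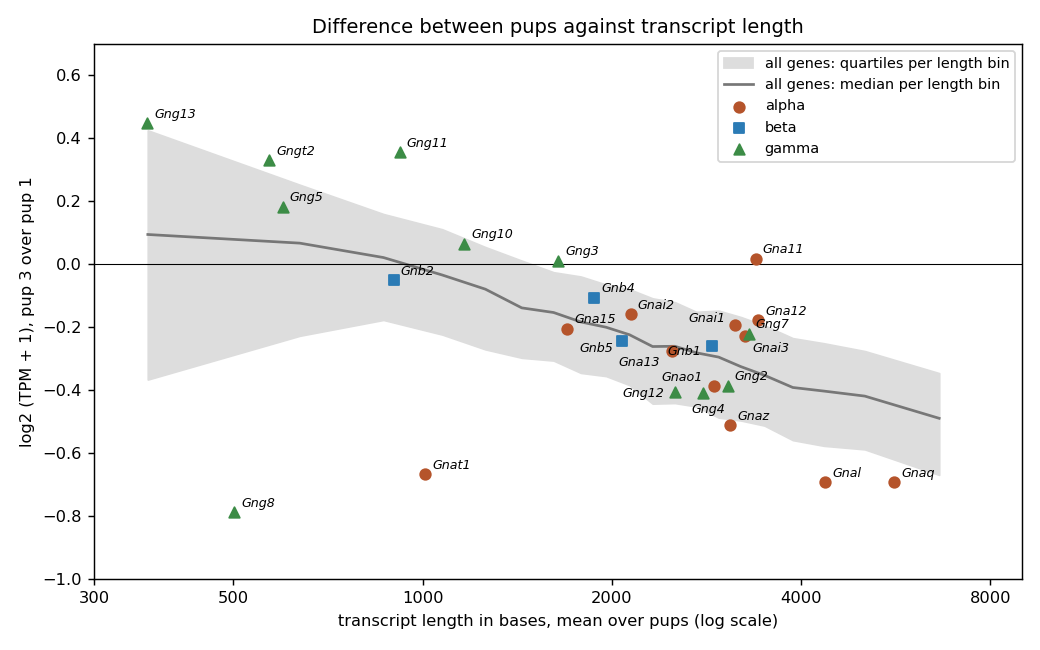
Log2 ratio of TPM + 1, pup 3 over pup 1, not centred, against transcript length on a log axis for the 27 subunit genes with a mean of at least 1 TPM (alpha circles, beta squares, gamma triangles). The grey line and band are the median and interquartile range of all 15463 genes in 20 length bins. Short gamma genes lie at the upper left, apart from Gng8, and Gnal and Gnaq at the lower right.

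Transcript length moved with these differences. Over the 27 genes, Spearman's correlation between length and the log2 ratio was −0.44, and over all 15463 genes it was −0.46, as a description of 2 libraries. Members under 1000 bases, mostly gamma genes, had a median log2 ratio, not centred, of 0.26, against 0.04 for all genes of that length. Members of 1000 to 3000 bases had −0.25, against −0.20 for all genes, and members of 3000 bases or more had −0.23, against −0.39. Gng8 went against its length class, as the short member with the lowest ratio. The part of length in these differences was not tested.

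Some markers of other cells also differed between the pups. Of 6 habenula and interpeduncular markers, 5 were detected and all 5 lay below the all-gene median, as Gng8 did. Their sum was 21.7 TPM in pup 3 and 37.2 in pup 1, led by Nwd2 at 10.5 and 13.7 TPM and Tac2 at 4.81 and 7.54 TPM, and none was at 0. Of 6 platelet and erythroid markers, 4 were detected, with a sum of 2363 TPM in pup 3 and 1671 in pup 1. Most of it came from the globins Hba-a2, at 1341 and 984 TPM, and Hbb-bs, at 954 and 626 TPM in pup 3 and pup 1. Relative to the all-gene median, 3 of the 4 were higher in pup 3, and the platelet marker Itga2b was lower, at 6.94 and 10.2 TPM. None of the 6 was at 0. Blood and immune markers, 4 of 8 detected and led by C1qb and Tyrobp, summed to 123 TPM in pup 3 and 118 in pup 1. The others detected were Csf1r and Cx3cr1. Ptprc had 0.50 and 0.90 TPM, Itgam 0.31 and 0.76, Cd79a 0.43 and 0.39 and Cd3e 0.15 and 0.09 in pup 3 and pup 1. The list does not tell blood cells from immune cells that reside in the brain. Of the 4 detected, 3 lay above the all-gene median, and Cx3cr1 lay below it, at 4.05 TPM in pup 3 and 8.72 in pup 1. Endothelial markers, 6 of 6 detected and led by Cldn5 and Pecam1, summed to 144 TPM in pup 3 and 146 in pup 1. Gng11, Gngt2 and Gna15 are also expressed by such cells, and the part of any of these cells in the subunit levels was not tested.

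For Gnal and Gng7, striatal markers were detected throughout, 8 of 8, with a sum of 278 TPM in pup 3 and 314 in pup 1. Foxp1 at 109 and 138 TPM and Ppp1r1b at 96.1 and 75.5 TPM in pup 3 and pup 1 were the highest, and none was at 0. The receptor genes were lower, Adora2a at 7.51 and 7.73 TPM, Drd1 at 6.07 and 5.44 TPM and Drd2 at 3.86 and 5.18 TPM. The median ratio of the 8 markers relative to all genes was −0.10, against −0.45 for Gnal and 0.02 for Gng7. Of the 8, 5 lay below the all-gene median and 3 above it, namely Ppp1r1b, Drd1 and Adora2a. Olfactory sensory neuron markers other than Adcy3 were below 1 TPM, and Omp, which defines these cells, had 0.30 TPM in pup 3 and 0.26 in pup 1. The sum of the 6 was 6.32 TPM in pup 3 and 8.97 in pup 1.

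The effectors of the alpha subunits were present at lower levels than the leading subunits. Of 10 adenylyl cyclases, which make cyclic AMP, 9 were detected, led by Adcy1 at 10.0 and 11.2 TPM, Adcy2 at 7.35 and 9.33 TPM and Adcy3 at 5.50 and 8.40 TPM in pup 3 and pup 1. Of 4 phospholipase C beta genes, which act for alpha q, 3 were detected. Plcb1 had 16.5 TPM in pup 3 and 31.1 in pup 1, Plcb4 had 4.39 TPM in pup 3 and 12.8 in pup 1, and Plcb3 had 5.82 TPM in pup 3 and 8.25 in pup 1. Plcb4 was over 2-fold lower in pup 3 relative to all genes. All 3 exchange factors that act for alpha 12 and alpha 13 were detected, Arhgef1 at 13.3 and 22.1 TPM, Arhgef12 at 5.16 and 10.1 TPM and Arhgef11 at 5.52 and 8.82 TPM.

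The leading regulators of the cycle reached higher levels. RGS proteins speed GTP hydrolysis by alpha subunits, and 16 of 20 were detected. Rgs4 had 59.5 TPM in pup 3 and 78.9 in pup 1, Rgs2 had 57.1 TPM in pup 3 and 71.0 in pup 1, and Rgs10 had 41.1 TPM in pup 3 and 53.1 in pup 1. Of 7 genes for R7 RGS proteins, which Gnb5 joins, and their partners, 6 were detected, and Rgs7 was the highest at 28.8 TPM in pup 3 and 38.1 in pup 1. Rgs6 and Rgs9 followed, at 12.2 and 13.8 TPM and at 9.72 and 12.6 TPM.

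Of 8 chaperones and regulators that act without a receptor, 7 were detected. Pdcl3, a phosducin-like protein, had 125 TPM in pup 3 and 131 in pup 1. Gpsm1, which binds GDP-bound alpha i, had 111 TPM in pup 3 and 123 in pup 1, and Ric8a, a chaperone of alpha subunits, had 63.2 TPM in pup 3 and 75.8 in pup 1. Of the 10 receptor kinases and arrestins, which end receptor signalling, 8 were detected, led by Arrb2 at 31.5 and 37.1 TPM, Grk6 at 30.6 and 33.8 TPM and Grk2 at 18.8 and 20.3 TPM in pup 3 and pup 1.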

How the data were processed

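Polyadenylated RNA from 2 newborn mouse forebrains was sequenced from 10 ng of RNA after mirVana extraction and tagmentation, per the labels. The deposited files give, per gene and per transcript, expected counts, TPM, FPKM and the percent of each gene's TPM per transcript, made by the authors for build mm10 (GRCm38) with GENCODE M21 and, separately, M4, per the file headers and the list of files. No source used here names the aligner or the quantifier. Expected counts divide reads that fit several transcripts, so levels of overlapping genes and the split between transcripts are estimates. How the low input and its amplification bear on transcripts of different lengths was not tested.

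From the M21 tables, members were matched by gene identifier to symbol, with detection at 1 TPM in both pups. Ratios used TPM + 1 and gene pairs TPM + 0.1. Sequences were cut from the GENCODE M21 transcripts by their annotated coding coordinates, with a stretch length of 50 bases for shared sequence. Count ratios carry exact 95% binomial intervals, which cover counting error only. The members and lists were chosen with earlier results of these data known. All 32 members are named, with the 3 genes of highest mean TPM of each pathway list and, of each marker list reported, the 2 of highest mean TPM and all with 0 counts in both pups, and overlapping genes by their shared sequence. Further list genes are named where they limit a result. Of the 12 symbols listed as kinases and arrestins, 2 were older symbols of others. The result of 1 marker list is not reported here.

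Alternatives were the posterior mean TPM, FPKM, expected counts scaled to library size (CPM), M4, other minimum levels and pseudocounts, and scaling with edgeR 4.0.16 (TMM) and DESeq2 1.42.0 on rounded expected counts. Tools were Python 3.11.15, pandas 2.3.3, Biopython 1.88 and R 4.3.3. The ratio calculation was tested on simulated data.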

Additional observations from a re-analysis of the deposited data

How the results depend on the processing

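Shares of the class sums depended on how transcripts were measured. From expected counts scaled to library size, with no length correction, alpha, beta and gamma held 30.8%, 40.7% and 28.5%. In the same unit the i, o, z and t family held 63.7% of the alpha sum, the q family 23.9% and alpha olf 7.05%. The cysteine class held 56.2% of the alpha sum and the leucine class 99.3% of the gamma sum. From protein-coding transcripts only, an alternative chosen after seeing the data, the 3 classes held 23.7%, 37.8% and 38.5%, so that gamma came slightly above beta. There the i, o, z and t family held 71.0% of the alpha sum, the q family 18.1% and the 12 and 13 family 5.74%. With Gnas added, also after seeing the data, the 3 classes held 38.8%, 33.3% and 27.9%. With M4, the i, o, z and t family held 72.8% and alpha olf 3.88%. FPKM and the posterior mean TPM moved no class or family share by more than 1 SD.

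The number of detected members was 28 at a minimum of 0.5 TPM, 24 at 5 TPM and 29 at 10 expected counts. It was 27 with pup 3 left out and 26 with pup 1 left out. The median ratio of the members between pups was −0.19 relative to all genes without a minimum level, where that median is 0, and −0.22 without centring. In each setting tried, 0 of the members compared were more than 2-fold apart. Gnb3 is below the minimum level and is not among the 27 compared, and its ratio of counts was 2.24. Leaving out a pup kept class shares within 1 SD by construction, and for the ratio between pups it gives no value. With M4, Gng8 averaged 4.44 TPM, against 10.5 TPM with M21. No paired analysis was possible because there is a single group. A count of 85 or 147, as for Gng8, limits the precision of the low members more than it does the abundant ones.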
